A study of Mus musculus with 6 samples.

Results

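The semaphorin, plexin, ephrin and Eph genes encode the main contact and guidance signals by which cells repel, attract and adhere to each other. The mouse has 51 of them among 21911 protein-coding genes of the GENCODE M21 annotation, taken as all symbols that start with *Sema* and a digit, *Plxn*, *Efna*, *Efnb*, *Epha* or *Ephb*. They are 20 semaphorins, 9 plexins, 8 ephrins and 14 Eph receptors. FOXC2, a forkhead transcription factor of podocytes, was mapped at these genes by ChIP-seq, and every gene was given the peaks that reach into the 10 kb to either side of its start.

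The chromatin came from podocytes of adult mTmG reporter mice of mixed genetic background, injected with adriamycin (ADR), a podocyte toxin, or with PBS. The ADR dose was 18 mg/kg, injected on days 0 and 7, with collection on day 9. PBS mice had the same schedule. All mice of both groups carried the mTmG reporter, which marked the membranes of podocytes so that they could be sorted by FACS. Each group had 3 samples, which the authors pooled into 1 peak list of 40067 peaks for ADR and 1 of 41075 peaks for PBS. With 1 list per group there is no replicate error, and no difference between ADR and PBS could be tested. A fold here is the authors' enrichment of a peak over the local control of its own list, and the read depth is unknown. The highest fold was 49.1 in the ADR list and 80.6 in the PBS list, so the lists differ in scale at the top and the rank of a fold in its list is given for the strongest peaks. In pooled chromatin, more cells bound and more binding per cell cannot be told apart.

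Semaphorins are secreted (class 3) or membrane-bound ligands, and plexins are their receptors, often with neuropilins as co-receptors. Plexins act on small GTPases and through them on actin and integrin adhesion. Ephrins are membrane-bound ligands, tethered by a lipid anchor (A class) or a transmembrane domain (B class), and Eph receptors are receptor tyrosine kinases that bind them on neighbouring cells. In the glomerulus, podocytes extend actin-based foot processes joined by slit diaphragms. Sema3g is known as a podocyte-secreted semaphorin, ephrin-B1 has been located at the slit diaphragm, and Sema3a can damage the filtration barrier.

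The sites printed here are those on which the account turns. They include the strongest sites within 10 kb of the starts of *Plxnb1*, *Sema3g*, *Ephb1* and *Sema4b*, and an *Efnb1* intron site. Among sites within 10 kb called in both lists, those with the largest differences toward ADR are printed, at *Sema3g*, *Plxnb1* and *Sema5a*. The sites with the largest differences toward PBS, at *Plxna2* and *Sema4b*, are not printed. A site called in the ADR list only and one called in the PBS list only complete the set. Each is the GRCm38 reference sequence 100 bp to either side of the summit, read on the strand of the gene, except the second *Plxnb1* site, which has 121 bases so that it stops short of an exon. Capitals mark strings that were searched on both strands: forkhead (A or G, C or T, AAA, C or T, A), WT1 (GTGGGAG or GTGGGCG), TEAD (ACATTCC or GCATTCC), LMX1B (TTAATTA or TAATTAA) and AP-1 (TGACTCA or TGAGTCA). A match is a string of letters and not a measured site of any factor.
*Plxnb1*, intron, chr9:109097018-109097218, + strand: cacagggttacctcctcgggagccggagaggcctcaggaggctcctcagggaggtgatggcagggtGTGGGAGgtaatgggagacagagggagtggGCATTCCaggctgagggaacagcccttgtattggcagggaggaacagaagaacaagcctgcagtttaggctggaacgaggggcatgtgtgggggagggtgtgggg
*Plxnb1*, intron, chr9:109099145-109099265, + strand: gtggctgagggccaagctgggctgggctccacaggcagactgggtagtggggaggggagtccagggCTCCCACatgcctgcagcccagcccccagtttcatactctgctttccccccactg
*Sema3g*, intron, chr14:31223954-31224154, + strand: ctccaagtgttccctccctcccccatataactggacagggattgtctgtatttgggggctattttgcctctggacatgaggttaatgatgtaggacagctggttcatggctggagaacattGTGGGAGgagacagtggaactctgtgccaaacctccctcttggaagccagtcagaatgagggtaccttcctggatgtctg
*Sema3g*, intron, chr14:31227180-31227380, + strand: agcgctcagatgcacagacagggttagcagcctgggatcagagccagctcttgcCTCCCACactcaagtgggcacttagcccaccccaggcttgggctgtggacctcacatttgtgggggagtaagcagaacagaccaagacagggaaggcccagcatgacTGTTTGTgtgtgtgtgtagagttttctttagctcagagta
*Ephb1*, promoter, chr9:102354709-102354909, − strand: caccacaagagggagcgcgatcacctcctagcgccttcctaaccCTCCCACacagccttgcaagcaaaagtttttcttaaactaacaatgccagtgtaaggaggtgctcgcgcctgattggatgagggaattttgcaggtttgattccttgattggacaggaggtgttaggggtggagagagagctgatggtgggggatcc
*Ephb1*, intron, ADR only, chr9:102351781-102351981, − strand: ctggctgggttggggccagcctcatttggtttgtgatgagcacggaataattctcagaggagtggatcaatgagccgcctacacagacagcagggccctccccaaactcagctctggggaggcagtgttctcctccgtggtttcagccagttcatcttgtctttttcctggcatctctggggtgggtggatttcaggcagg
*Efnb1*, intron, chrX:99141290-99141490, + strand: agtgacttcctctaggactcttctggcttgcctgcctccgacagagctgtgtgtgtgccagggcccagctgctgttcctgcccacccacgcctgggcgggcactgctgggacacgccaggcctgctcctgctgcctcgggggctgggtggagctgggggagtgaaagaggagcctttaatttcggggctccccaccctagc
*Sema4b*, intron, chr7:80192557-80192757, + strand: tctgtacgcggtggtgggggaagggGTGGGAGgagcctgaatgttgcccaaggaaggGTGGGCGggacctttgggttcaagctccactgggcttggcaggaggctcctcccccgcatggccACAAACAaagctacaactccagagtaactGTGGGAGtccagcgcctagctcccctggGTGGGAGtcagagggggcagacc
*Sema5a*, upstream, chr15:32239715-32239915, + strand: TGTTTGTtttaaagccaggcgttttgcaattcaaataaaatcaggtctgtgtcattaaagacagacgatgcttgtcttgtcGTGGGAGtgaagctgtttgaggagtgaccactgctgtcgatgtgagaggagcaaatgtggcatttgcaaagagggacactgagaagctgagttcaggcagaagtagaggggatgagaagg
*Ephb4*, upstream, PBS only, chr5:137348722-137348922, + strand: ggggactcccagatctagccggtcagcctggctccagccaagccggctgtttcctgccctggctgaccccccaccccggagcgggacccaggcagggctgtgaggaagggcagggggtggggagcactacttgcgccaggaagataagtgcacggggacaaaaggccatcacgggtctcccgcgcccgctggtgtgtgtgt

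FOXC2 peaks lay near most genes of these families in both groups. Of the 51 genes, 35 had an ADR peak and 33 a PBS peak, and together they had 83 ADR and 87 PBS peaks. The shares were 68.6% for ADR (95% Wilson interval 55.0 to 79.7) and 64.7% for PBS (51.0 to 76.4). Among all coding genes 55.9% had an ADR peak and 58.8% a PBS peak, so the PBS share lay near that of other genes and the interval of the ADR share also includes the value of all genes. Such intervals cover counting error only. By family, all 8 ephrins, 7 of 9 plexins, 14 of 20 semaphorins and 8 of 14 Eph receptors had a peak in either list.

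No peak of either list lay within 10 kb of the start at 14 genes, of which 6 had peaks farther inside the gene. The 14 were *Sema3a*, *Sema3c*, *Sema3d*, *Sema4f*, *Sema5b*, *Sema6d*, *Plxnb3*, *Plxnc1*, *Epha4*, *Epha6*, *Epha8*, *Epha10*, *Ephb2* and *Ephb6*. They include *Sema3a*, the semaphorin known for its effect on the filtration barrier, and 3 of the 7 class 3 semaphorins in all. *Epha10* and *Ephb6* encode receptors whose kinase domain is inactive.

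More ADR than PBS peaks were found at 9 of the 51 genes (17.6%) and fewer at 11 (21.6%), against 10.8% and 18.7% of all coding genes. The Wilson intervals of the members' shares, 9.57 to 30.3 and 12.5 to 34.6, include those values. *Plxnb1*, the receptor of Sema4d, had the largest difference upward, with 7 ADR peaks and 4 PBS peaks. *Sema6b*, a transmembrane semaphorin that binds A-class plexins, had 2 ADR peaks and 0 PBS peaks. *Efna5*, *Efnb3*, *Epha2*, *Ephb1*, *Plxna4*, *Sema4d* and *Sema4g* each had 1 more ADR peak. *Efna5* had 0 ADR-only sites, as 2 of its ADR peaks overlapped 1 PBS peak.

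*Plxna1*, a receptor of class 3 semaphorins with neuropilins, had 2 ADR peaks and 5 PBS peaks. *Sema7a*, a lipid-anchored semaphorin that also signals through integrins, likewise had 2 ADR peaks and 5 PBS peaks. *Efna3* had 0 ADR peaks and 2 PBS peaks. *Efna1*, *Efna2*, *Efna4*, *Efnb2*, *Ephb4*, *Plxnb2*, *Plxnd1* and *Sema6a* each had 1 fewer ADR peak, so that 4 of the 5 A-class ephrins were on this side. The remaining 17 genes with peaks had equal numbers, among them *Sema3b* with 5 in each list and *Sema3f*, *Sema3g*, *Sema4b* and *Efnb1* with 4 in each list.

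**Figure D1:**
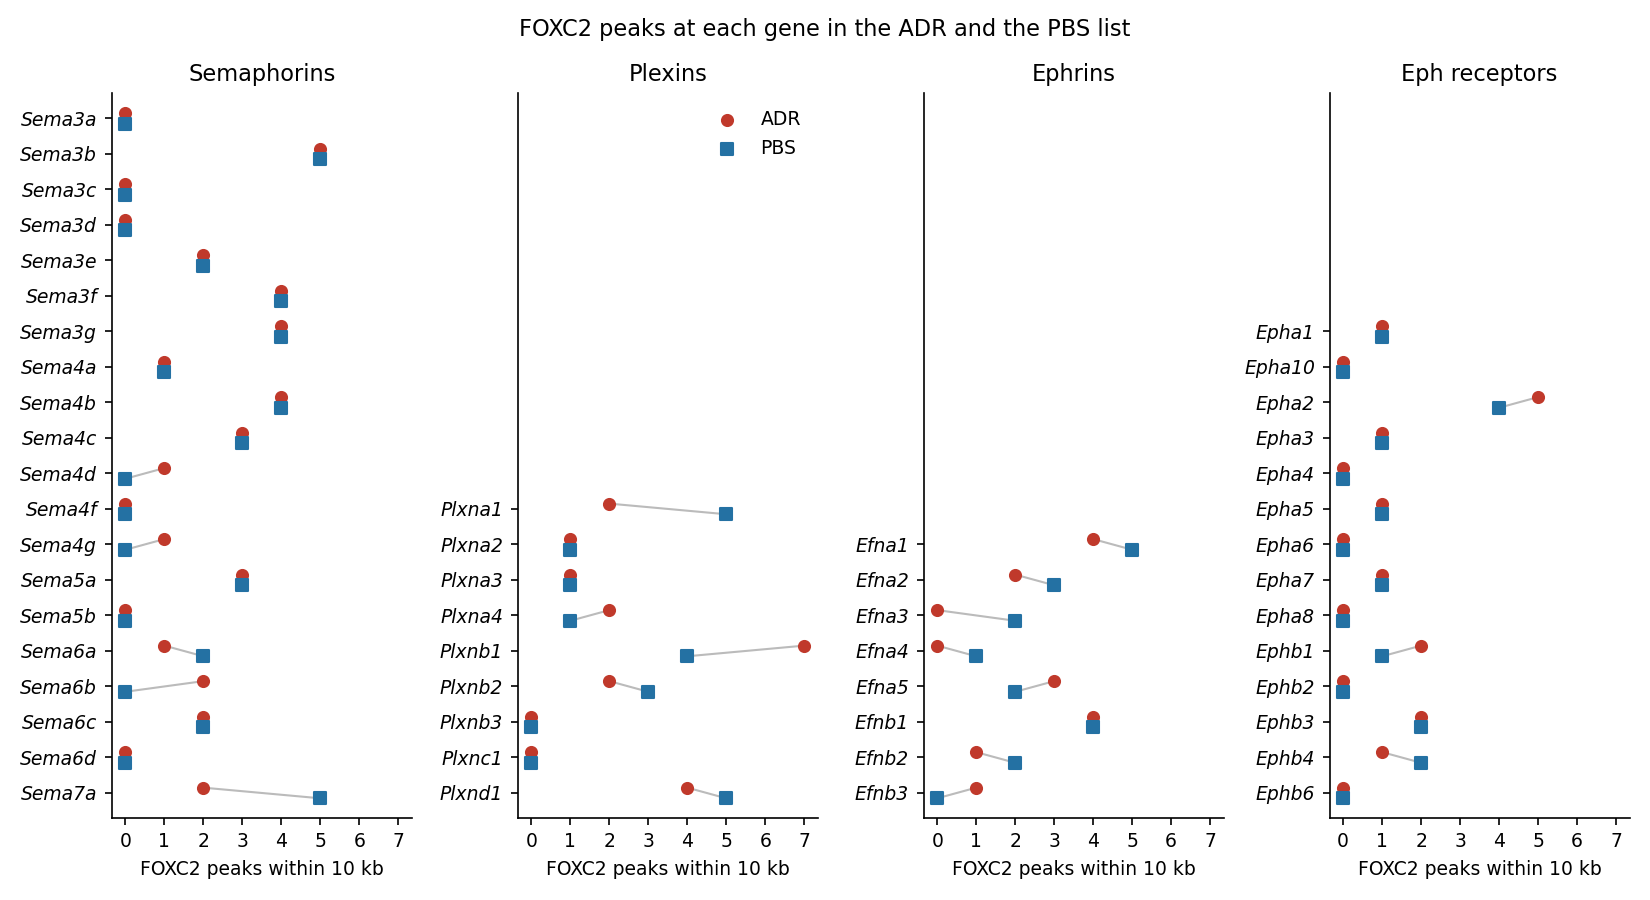
FOXC2 peak numbers in the 10 kb around the start of each of the 51 genes (x axis, peaks) in the ADR list (circles) and the PBS list (squares), 1 pooled list per group. *Plxnb1* lies farthest to the right with 7 ADR peaks against 4 PBS peaks, and *Plxna1* and *Sema7a* have 2 ADR peaks against 5 PBS peaks.

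The 170 peaks formed 103 sites, where peaks of the lists that share at least 1 bp are 1 site. Of these sites 64 were called in both lists (62.1%), 18 in the ADR list only (17.5%) and 21 in the PBS list only (20.4%). Over all coding genes the ADR-only sites made up 14.6% and the PBS-only sites 22.1%, which lie within the members' intervals of 11.3 to 25.9 and 13.7 to 29.2. A site called in 1 list only was not called in the other, and signal below the caller's threshold is not in the lists. The one-list sites were mostly weak. The median fold was 5.06 for the 18 ADR-only peaks and 5.23 for the 21 PBS-only peaks, against 7.30 for ADR peaks and 7.39 for PBS peaks of the sites called in both.

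Ephrin sites were more often PBS only than ADR only, which is also the direction of sites near all coding genes (22.1% and 14.6%). *Plxnb1* sites were shared or ADR only. Of 22 ephrin sites 3 were ADR only and 8 PBS only, and 6 of those 8 belonged to A-class ephrins. The 23 plexin sites held 4 of each kind, and 3 of the 4 ADR-only sites were at *Plxnb1*. The 43 semaphorin sites held 9 ADR-only and 8 PBS-only sites, with 3 ADR-only and 0 PBS-only sites at class 4 and 0 ADR-only and 3 PBS-only sites at *Sema7a*. Of 15 Eph receptor sites 2 were ADR only and 1 PBS only. These counts are small and carry no test.

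**Figure D2:**
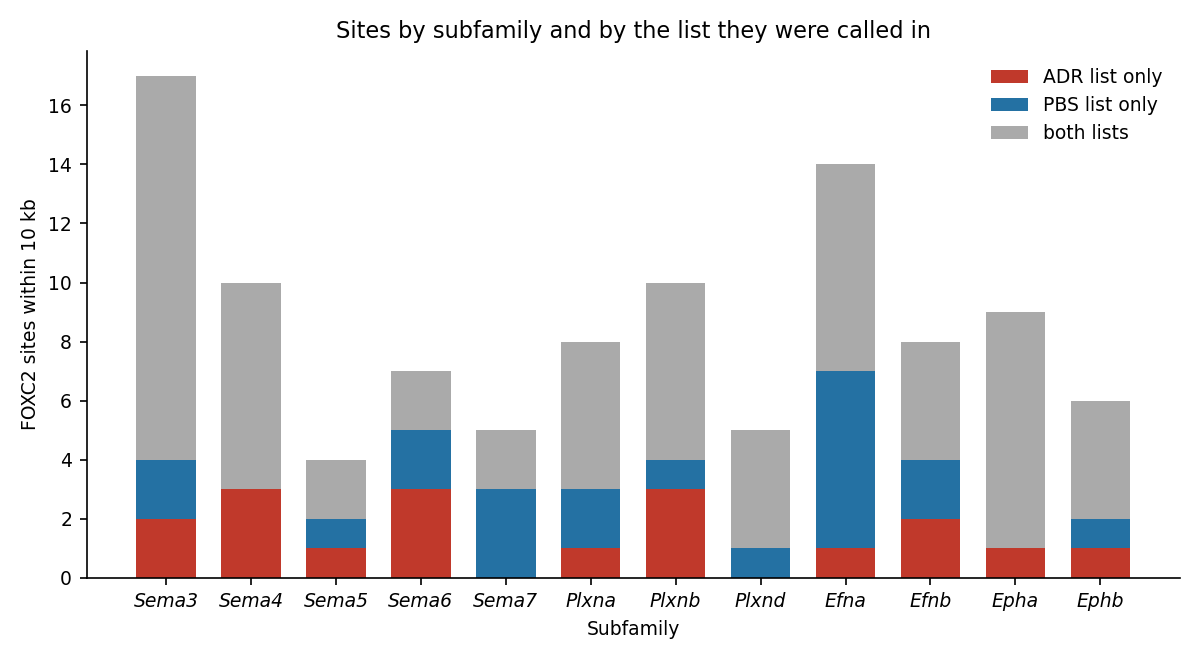
FOXC2 sites within 10 kb of gene starts (y axis, number of sites), stacked by whether they were called in the ADR list only, the PBS list only or both lists, for each subfamily with a site. *Efna* genes have 1 ADR-only and 6 PBS-only sites, and *Sema4* genes 3 ADR-only and 0 PBS-only sites.

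At 37 of the 64 sites called in both lists the ADR fold exceeded the PBS fold (57.8%, interval 45.6 to 69.1), against 47.9% of the 13695 such sites near all coding genes. The median log2 fold difference, ADR minus PBS, was 0.05 with a 95% order-statistic interval of −0.14 to 0.26, and −0.03 over all coding genes. The sign of the members' median flipped to −0.10 when each list's folds were set against the median of its shared peaks. This centering shifts ADR against PBS by 0.14. With the same shift the median over all coding genes was −0.17, so the members' median stayed the higher. The ADR fold was at least 2 times higher at 6 of the 64 sites (9.38%, against 6.72% near all coding genes) and at least 2 times lower at 3 (4.69%, against 5.55%).

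Among subfamilies with more than 2 shared sites, the B-class ephrins and B-class plexins had the highest median differences. All 6 shared sites of *Plxnb1* and *Plxnb2* had a higher ADR fold, with a median difference of 0.68, and 5 of the 6 after centering (median 0.54). All 4 shared sites of *Efnb1* and *Efnb2* had a higher ADR fold (median 0.87), also after centering (median 0.72). The PBS peaks of the *Efnb1* and *Efnb2* promoter sites were among the weakest of the PBS list, at ranks 40125 and 41047 of 41075. At *Efnb2* the ADR summit lay 42 bp downstream and the PBS summit 501 bp upstream of the start. The 7 shared sites of class 4 semaphorins had a median of −0.44, with 2 of them higher in ADR. The 7 of A-class ephrins had a median of −0.23, with 3 higher before centering and 0 after it. The Eph receptors, with 12 shared sites, had a median of 0.02, and −0.12 after centering. Sites of 1 gene share their source and are not replicates.

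**Figure D3:**
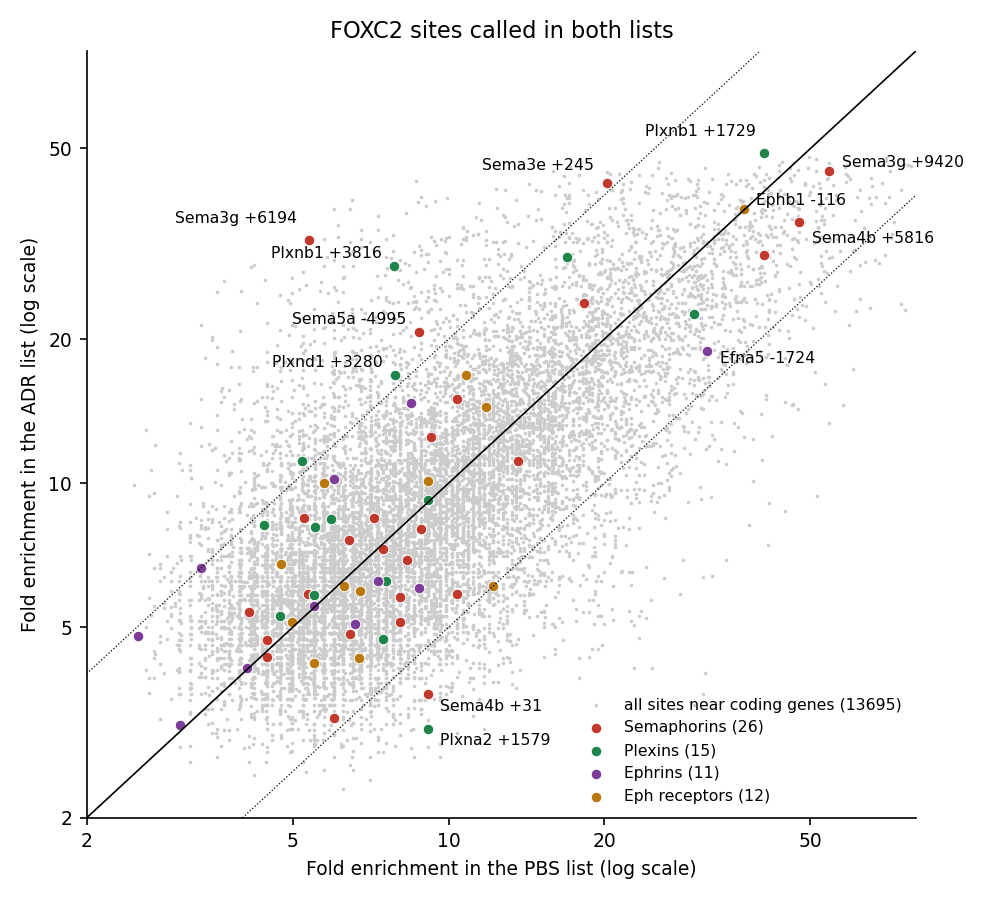
Fold enrichment in the ADR list (y axis, log scale) and in the PBS list (x axis, log scale) at the 64 member sites called in both lists, coloured by family, over the 13695 such sites near all coding genes in grey. Labels give the gene and the summit position in bp from its start, the solid line marks equal folds and the dotted lines a 2-fold difference. *Sema3g* +6194 has folds of 32.2 in ADR and 5.38 in PBS.

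Among the ligands, *Sema3g*, one of the members the study itself names, held both the strongest PBS peak and the largest difference at a shared site within 10 kb of these gene starts. Its gene record is on chr14:31217860-31230352 on the + strand. The intron site 6194 bp downstream of the gene start had a fold of 32.2 in ADR podocytes (rank 1213 of the ADR list) and 5.38 in PBS podocytes (rank 26969 of the PBS list). The ratio was 5.99, a log2 difference of 2.58. The second intron site, 9420 bp downstream, had folds of 44.8 in ADR (rank 90) and 54.3 in PBS (rank 107), a log2 difference of −0.28. So of these neighbouring intron sites one was among the strong peaks of both lists and the other of the ADR list only, as the ranks show. The printed sequences hold a WT1 string at each of them, and a forkhead string at the second. The promoter site 8 bp upstream of the start was weak in both lists, with folds of 5.86 in ADR and 5.36 in PBS. Starts of *Nisch* and *Tnnc1* also lie within 10 kb of the *Sema3g* start, and the farthest upstream *Sema3g* peaks lie nearer to those starts, the ADR peak to *Nisch* and the PBS peak to *Tnnc1*.

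*Sema3e*, whose protein is the ligand of plexin D1, had a site in its first exon, 245 bp downstream of the start, with folds of 42.4 in ADR (rank 226) and 20.2 in PBS (rank 3070). The log2 difference was 1.07, and 0 of the searched strings lay within 100 bp of this summit. Its second site within 10 kb, an intron site 5764 bp downstream of the start, had near-equal folds of 7.30 in ADR and 7.48 in PBS. *Sema5a*, a transmembrane semaphorin with thrombospondin repeats, had a site 4995 bp upstream with folds of 20.7 in ADR and 8.78 in PBS, a log2 difference of 1.24. This site holds a forkhead and a WT1 string.

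*Sema4b*, a transmembrane semaphorin, differed in the other direction at all 4 of its sites within 10 kb. The strongest, an intron site 5816 bp downstream, had folds of 35.1 in ADR (rank 814) and 47.6 in PBS (rank 224). Its 201 bases hold 4 WT1 strings and 1 forkhead string. The site 31 bp downstream of the start had folds of 3.63 in ADR and 9.11 in PBS, a log2 difference of −1.33. The site at 813 bp had 5.86 in ADR and 10.4 in PBS (−0.83), and the site at 4832 bp had 5.14 in ADR and 8.07 in PBS (−0.65). In *Sema6a*, a ligand of plexins A2 and A4, the promoter site 13 bp upstream was strong in both lists, with folds of 30.0 in ADR (rank 1607) and 40.6 in PBS (rank 458). A further *Sema6a* site 1524 bp upstream was called in PBS only, with a fold of 5.49. At *Sema6c* the promoter site had folds of 3.24 in ADR and 6.01 in PBS, a log2 difference of −0.89.

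*Sema4c*, a ligand of plexin B2, had the strongest ADR-only site within 10 kb of any of the 51 gene starts. It lay 6128 bp upstream with a fold of 14.6, at a transcript end of another gene model. Its 2 shared sites had folds of 12.5 in ADR and 9.24 in PBS at 275 bp, and 11.1 in ADR and 13.6 in PBS at 2128 bp. *Sema4a* had a single shared site, 5348 bp downstream, with folds of 23.8 in ADR and 18.3 in PBS. Within 10 kb of their starts, *Sema4d*, *Sema4g* and *Sema6b* had peaks in the ADR list only, 4 in all, with folds between 4.60 and 5.28. Counted to the end of the gene, *Sema4d* had 3 peaks in each list. *Sema7a* had 3 PBS-only sites with folds of 4.98, 5.49 and 5.33, beside shared promoter sites of 8.02 in ADR and 8.85 in PBS at 468 bp upstream, and 6.92 in ADR and 8.33 in PBS at 46 bp downstream. *Sema3b* and *Sema3f*, 2 secreted semaphorins, had 7 shared sites with log2 differences between −0.48 and 0.69.

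Among the receptors, *Plxnb1* held the strongest ADR peak within 10 kb of the 51 gene starts. Its gene record is on chr9:109095389-109119917 on the + strand. The intron site 1729 bp downstream had a fold of 48.9 in ADR, rank 2 of the 40067 ADR peaks, and 40.7 in PBS, rank 455. The intron site at 3816 bp had folds of 28.4 in ADR (rank 1867) and 7.86 in PBS (rank 15237), a log2 difference of 1.85, the second largest at a shared site within 10 kb of these gene starts. Both hold a WT1 and a TEAD string within 100 bp of the summit, of which the TEAD string of the second lies outside the bases printed. At 480 bp the folds were 11.1 in ADR and 5.21 in PBS (1.10), while at the promoter, 238 bp upstream, they were 9.22 in ADR and 9.11 in PBS. The other 3 *Plxnb1* sites were ADR only: 2325 bp upstream with a fold of 7.61, and 2726 and 5055 bp downstream with folds of 6.92 and 3.73.

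*Plxnb2*, a receptor of class 4 semaphorins, had a promoter site 82 bp upstream with folds of 29.7 in ADR and 16.9 in PBS, a log2 difference of 0.81. Its intron site at 1595 bp had folds of 8.08 in ADR and 5.52 in PBS, and a PBS-only site at 3467 bp had a fold of 5.94. *Plxnd1* had an intron site 3280 bp downstream with folds of 16.8 in ADR and 7.88 in PBS (1.09), with the other 3 shared sites between −0.66 and 0.51.

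A-class plexins were less uniform. The strongest *Plxna1* site within 10 kb, an intron site 3488 bp downstream of the start, had folds of 22.6 in ADR and 29.8 in PBS, and its PBS-only sites lay 6325 bp upstream (fold 6.29, with a forkhead string) and 877 bp downstream (fold 5.69). The 5 PBS peaks of *Plxna1* thus include 2 that no ADR peak overlaps. *Plxna2* had a single site, 1579 bp downstream, with folds of 3.07 in ADR and 9.11 in PBS. Its log2 difference of −1.57 was the lowest of the 64 shared sites. *Plxna3* had folds of 8.19 in ADR and 4.41 in PBS at its promoter (0.89), and *Plxna4* 6.25 in ADR and 7.56 in PBS (−0.27) with an ADR-only intron site at 1676 bp of fold 4.32.

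**Figure D4:**
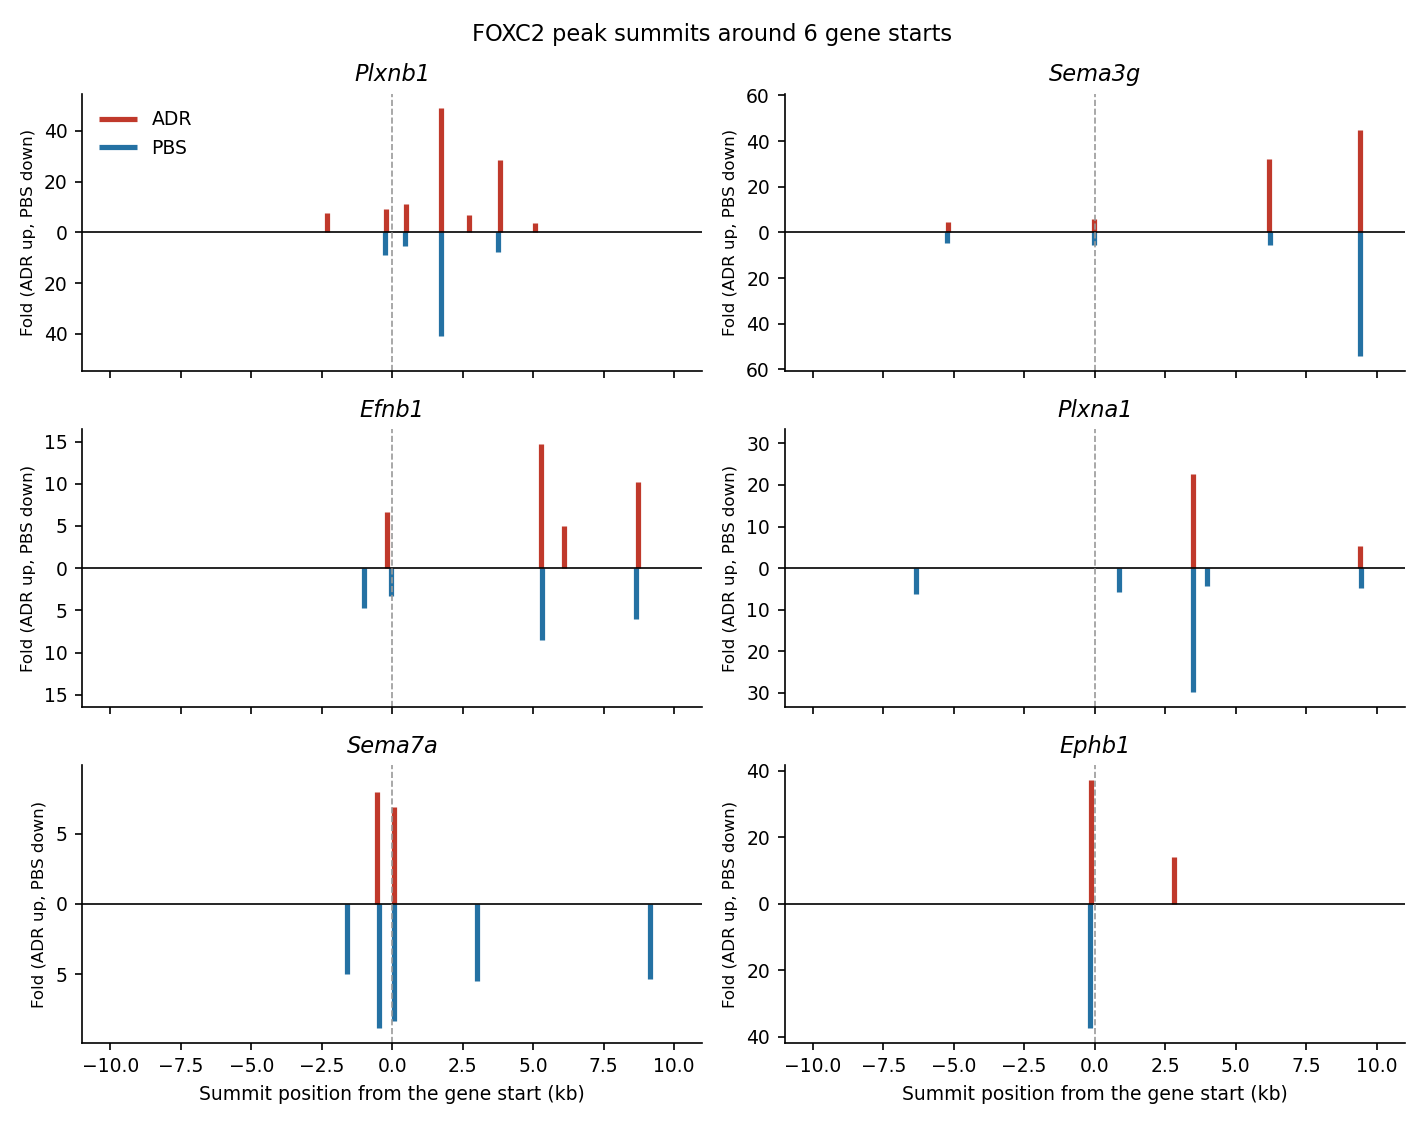
Fold enrichment of each FOXC2 peak (y axis, ADR upward and PBS downward, linear scale with its own range per gene) at its summit position from the gene start (x axis, kb, gene direction to the right) for 6 genes. At *Sema3g* the PBS bar at about 9.42 kb is the tallest, with a fold of 54.3, and the ADR bars stand at folds of 32.2 and 44.8.

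Among the ephrins, *Efnb1*, which the study also names and which encodes ephrin-B1, had 4 ADR and 4 PBS peaks, and all 3 of its shared sites had a higher ADR fold. Its gene record is on chrX:99136130-99148991 on the + strand. The intron site 5260 bp downstream had folds of 14.7 in ADR and 8.46 in PBS (log2 difference 0.80). The intron site at 8725 bp had folds of 10.2 in ADR and 6.01 in PBS (0.76). The promoter site 199 bp upstream had folds of 6.65 in ADR and 3.33 in PBS, a ratio that falls just short of 2. An ADR-only site at 6100 bp had a fold of 4.97 and a PBS-only site 1008 bp upstream a fold of 4.67.

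*Efnb2* had a promoter site with folds of 4.80 in ADR and 2.51 in PBS, and a PBS-only site at 2264 bp with a fold of 7.30. *Efnb3* had its sole peak in the ADR list, 57 bp upstream, with a fold of 6.0. *Efna5* held the strongest ephrin site within 10 kb, 1724 bp upstream, with folds of 18.9 in ADR and 31.6 in PBS (−0.74) and a forkhead string. *Efna3* had 2 PBS-only intron sites, with folds of 7.30 at 1952 bp and 4.67 at 5989 bp, and *Efna4* a PBS-only site with a fold of 5.23. *Efna1* had shared sites of near-equal or lower ADR fold, such as 5.08 in ADR and 6.59 in PBS at 31 bp upstream. The ADR-only site of *Efna1*, with a fold of 12.3 at 9158 bp, lies 1414 bp from the start of *Slc50a1* and nearer to it than to *Efna1*. All 5 peaks of *Efna2* lie nearer to the start of *1600002K03Rik*.

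Among the Eph receptors, *Ephb1*, a receptor of B-class ephrins, had the strongest site within 10 kb, 116 bp upstream, with folds of 37.3 in ADR (rank 603) and 37.2 in PBS (rank 638). The intron site 2812 bp downstream was ADR only, with a fold of 14.2, the second strongest ADR-only site within 10 kb of these gene starts. None of the searched strings lies in its printed sequence. *Ephb4*, the receptor of ephrin-B2, had the strongest PBS-only site within 10 kb, 1287 bp upstream with a fold of 7.49. Its promoter site had folds of 6.10 in ADR and 6.27 in PBS. *Ephb3* had folds of 16.8 in ADR and 10.8 in PBS at 6413 bp (0.64).

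*Epha2*, a receptor of A-class ephrins in epithelia, had 5 ADR and 4 PBS peaks. Its site at 946 bp had folds of 6.10 in ADR and 12.2 in PBS, at a ratio of 0.50 the member site closest to the 2-fold limit on the lower side, and its site at 9222 bp had 14.4 in ADR and 11.8 in PBS. The single *Epha1* site, 3123 bp upstream, had a log2 difference of 0.80. *Epha3*, *Epha5* and *Epha7* had 1 promoter site each, with log2 differences of −0.64, 0.05 and 0.14.

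Averaged over the peaks of a gene, the log2 fold was greater in ADR than in PBS for 20 of the 31 genes with peaks in both lists (64.5%, interval 46.9 to 78.9), against 51.1% of all coding genes with peaks in both. After centering it was higher at 18 of 31, against 39.7% of all coding genes. This mean runs over all peaks of each list, so a weak peak called in 1 list alone lowers the mean of that list. *Sema6a* and *Sema7a* counted as higher in ADR by 1.01 and 0.22 on the log2 scale although every shared site of theirs within 10 kb had the lower fold in ADR, and *Plxna1* by 0.58 although its strongest site there was lower in ADR. By family it was higher at 8 of 11 semaphorins, 5 of 7 plexins, 3 of 5 ephrins and 4 of 8 Eph receptors.

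Many member peaks lay inside genes. Promoters (1 kb upstream to 100 bp downstream of a transcript start) held 44.6% of the 83 ADR and 42.5% of the 87 PBS member peaks, against 59.0% of ADR and 58.9% of PBS peaks near all coding genes. Introns held 33.7% of ADR and 35.6% of PBS member peaks, against 21.9% of ADR and 21.3% of PBS peaks near all coding genes. These differences in place were not tested. Of the 103 sites 36 lay within 1 kb of the gene start, with folds higher in ADR at 14 of the 28 shared there. Between 1 and 5 kb there were 41 sites, with folds higher in ADR at 14 of the 21 shared. Beyond 5 kb there were 26 sites, with folds higher in ADR at 8 of the 15 shared. The median GC content around the summits was 60.7% for ADR and 60.2% for PBS member peaks, against 54.2% for all ADR and 55.2% for all PBS peaks. Only 29.5% of all ADR and 31.8% of all PBS peaks lay in promoters, and the GC content of peaks near all coding genes was not computed. The GC values therefore do not set these genes apart from other genes.

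A forkhead string lay within 100 bp of the summit at 15 of the 83 ADR peaks (18.1%) and 12 of the 87 PBS peaks (13.8%). For peaks near all coding genes these shares were 15.2% in the ADR list and 13% in the PBS list, and for all peaks 25.1% in the ADR list and 19.5% in the PBS list. Strings of WT1, a zinc finger factor of podocytes, were found at 28.9% of ADR and 28.7% of PBS member peaks, against 27.1% of ADR and 24.9% of PBS peaks near all coding genes and 30.6% of all ADR and 27.8% of all PBS peaks. Among member peaks with a fold of at least 20, a WT1 string lay at 9 of 12 ADR and 5 of 8 PBS peaks, against 42.0% of all ADR and 45.4% of all PBS peaks of that fold. TEAD strings lay at 9 ADR and 6 PBS member peaks, against 7.75% of ADR and 6.88% of PBS peaks near all coding genes and 11.8% of all ADR and 10.1% of all PBS peaks. AP-1 strings lay at 2 ADR and 4 PBS member peaks, 2.41% in ADR and 4.60% in PBS, against 2.93% of ADR and 5.62% of PBS peaks near all coding genes and 4.02% of all ADR and 9.33% of all PBS peaks. Within 10 kb of the starts, LMX1B strings lay at 0 of 83 ADR peaks and 0 of 87 PBS peaks. Such counts allow shares of up to 3.61% for ADR and 3.45% for PBS. Near all coding genes the shares were 1.61% of ADR and 0.754% of PBS peaks. Among all peaks they were 3.52% in ADR and 1.52% in PBS. Peaks within 1 gene are not independent, and the same site enters both lists where it is shared.

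Several of these genes are long, and the 10 kb window misses most of their introns. Peaks were therefore also counted from 10 kb upstream of each start to the end of the gene, an extension chosen after the window values were seen. Over the 51 genes this gave 176 ADR and 164 PBS peaks. More ADR peaks were found at 13 genes and fewer at 16, against 15.6% and 21.1% of all coding genes. Of the 14 genes without a peak within 10 kb, 6 had peaks in the gene. *Epha4* and *Ephb2* each had 1 ADR and 3 PBS peaks, and *Sema5b* 0 ADR and 2 PBS peaks. *Epha6*, *Sema6d* and *Sema3a* had more ADR than PBS peaks. *Sema5a* had 26 ADR and 15 PBS peaks over its 451532 bp, and *Ephb1* 21 ADR and 12 PBS peaks over 432566 bp. Increases of at least 9 peaks in ADR over PBS were found at 56 of the 21911 coding genes, 21 of them longer than 400 kb. Decreases of that size were not counted. All 6 members longer than 400 kb had more ADR peaks: besides *Sema5a* and *Ephb1* these were *Plxna4* (8 ADR, 7 PBS), *Epha6* (3 ADR, 1 PBS), *Sema6d* (3 ADR, 1 PBS) and *Sema3a* (2 ADR, 0 PBS). Of the 354 coding genes of that length, 42.4% had more ADR peaks and 25.4% fewer, so gene length moved with this count over the whole annotation. The 400 kb cut was the only length cut used. Below it, the next longest members had equal numbers in the lists. These were *Epha5* (362622 bp) and *Epha3* (320642 bp) with 1 peak in each list, and *Efna5* (277134 bp) with 5 in each.

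Most *Sema5a* sites lay far from its start, 27 of 31 beyond 10 kb. Of the 31 sites 10 were called in both lists, 16 in ADR only and 5 in PBS only. The ADR-only folds ran between 3.05 and 25.4 with a median of 6.56. The strongest ADR-only sites lay 289 kb and 198 kb into the gene, with folds of 25.4 and 24.7. At 271 kb the folds were 33.2 in ADR and 6.55 in PBS, and at 252 kb 16.8 in ADR and 2.71 in PBS, a log2 difference of 2.63. The PBS fold was the higher at 84.0 kb, with 4.20 in ADR and 12.2 in PBS. A forkhead string lay at 11 of the 16 ADR-only summits, against 38.9% of all intronic ADR-only peaks. An LMX1B string lay at 2 of the 31 sites, the ADR-only sites at 198 kb and 289 kb. Of all intronic ADR-only peaks, 6.70% held an LMX1B string.

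In *Ephb1*, 8 of 24 sites were called in both lists, 13 in ADR only and 3 in PBS only. At 54.7 kb the folds were 21.1 in ADR and 5.84 in PBS (log2 difference 1.86), at 87.3 kb 18.6 in ADR and 7.56 in PBS (1.3) and at 187 kb 19.5 in ADR and 10.4 in PBS (0.91). The strongest ADR-only site lay at 91.1 kb with a fold of 17.3. At 268 kb the order was the other way, with 4.63 in ADR and 10.7 in PBS (−1.20). A forkhead string lay at 3 of the 24 sites, 2 of them among the 13 ADR-only sites. *Sema3e* had 8 ADR and 5 PBS peaks, with folds of 36.5 in ADR and 11.3 in PBS at 14.1 kb (1.69) and 18 in ADR and 3.18 in PBS at 93.7 kb (2.5), and an ADR-only site of fold 15 at 23.8 kb. The *Ephb1* promoter site had near-equal folds, while 6 of its 7 shared sites beyond 10 kb had the higher fold in ADR.

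The counts ran the other way at *Plxna1* and *Sema4b*. *Plxna1* had 6 ADR and 9 PBS peaks, with its strongest site 20.4 kb downstream at folds of 35.8 in ADR and 48.3 in PBS (−0.43). *Sema4b* had 8 ADR and 9 PBS peaks, and beyond 10 kb its shared sites went both ways. At 13.4 kb the folds were 10.6 in ADR and 4.72 in PBS (1.17), at 15.9 kb 9.93 in ADR and 6.59 in PBS (0.59), at 11.6 kb 13.9 in ADR and 13.2 in PBS (0.07) and at 19.6 kb 5.37 in ADR and 9.88 in PBS (−0.88).

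**Figure D5:**
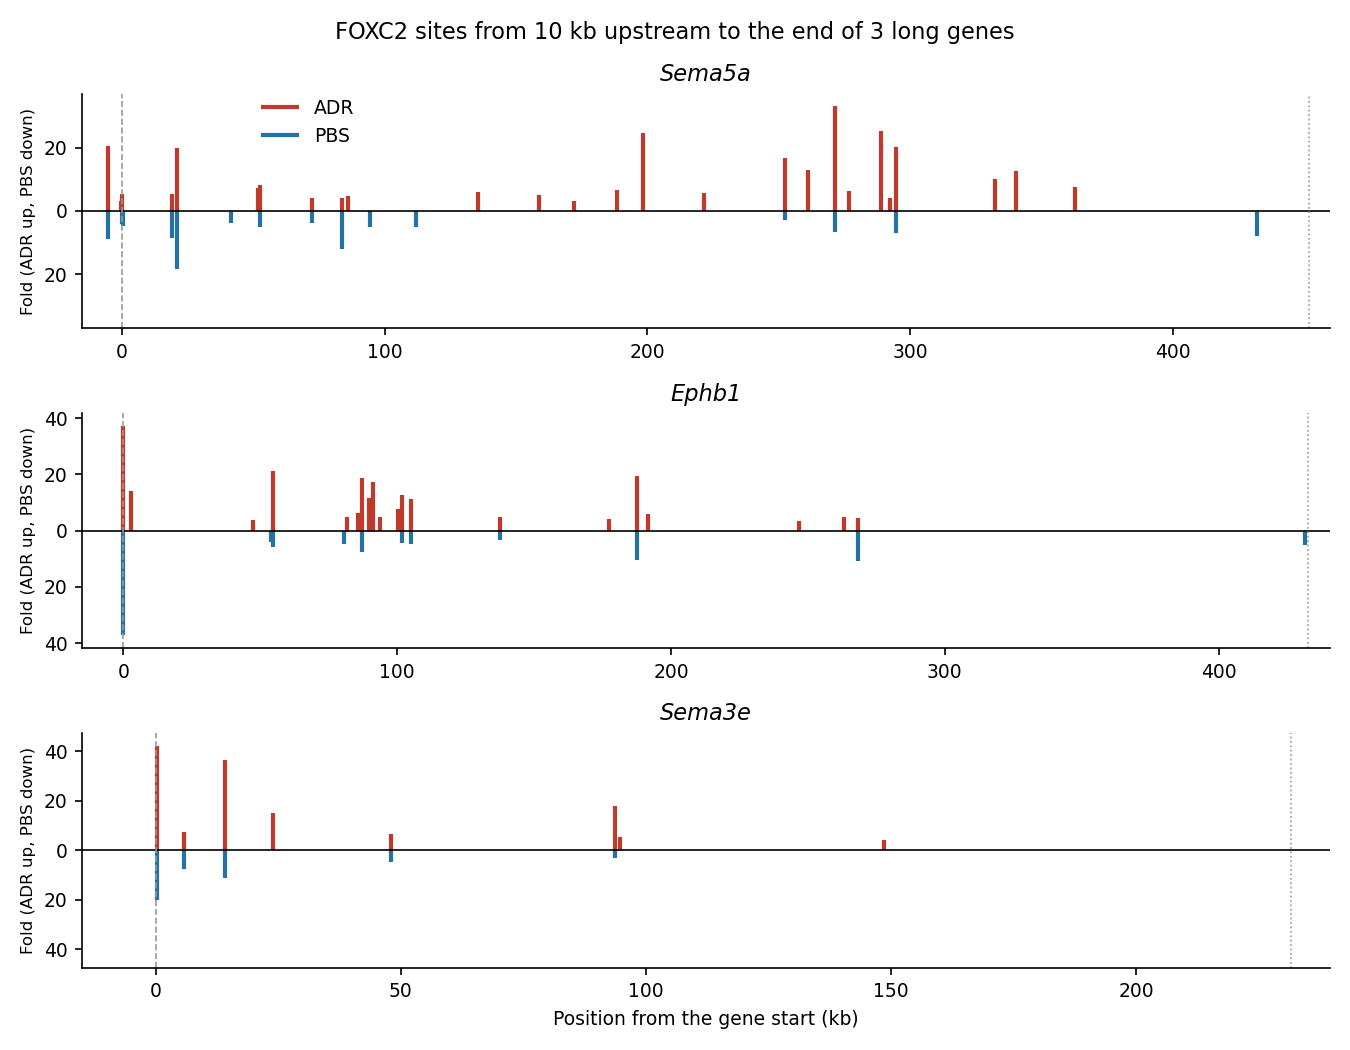
Fold enrichment of FOXC2 sites (y axis, strongest peak per list, ADR upward and PBS downward, linear scale) by distance from the gene start (x axis, kb) from 10 kb upstream to the gene end (dotted line) for *Sema5a*, *Ephb1* and *Sema3e*. Tall ADR bars without a PBS bar of like height stand at 198 kb and 289 kb of *Sema5a*, with folds of 24.7 and 25.4.

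Partners of these families were counted from lists of co-receptors and signal proteins. Of 18 semaphorin pathway partners 3 had more ADR than PBS peaks, 8 fewer, 4 the same number and 3 none, with 34 ADR and 43 PBS peaks in all. *Nrp1*, the main co-receptor of class 3 semaphorins, had 5 peaks in each list with strongest folds of 13.9 in ADR and 16.9 in PBS. *Kdr*, the VEGF receptor that pairs with neuropilins, had 1 ADR and 3 PBS peaks. *Fyn*, a Src-family kinase downstream of plexins and nephrin, had 4 peaks in each list with strongest folds of 39.6 in ADR and 9.36 in PBS. Of 16 Eph pathway partners 0 had more ADR peaks, 8 fewer, 4 the same number and 4 none, with 16 ADR and 27 PBS peaks. *Nck2*, an adaptor that also binds nephrin, had 2 ADR and 4 PBS peaks, and *Adam10*, a protease that cleaves ephrins, 1 in each list with folds of 27.0 in ADR and 42.8 in PBS. Both partner lists lay toward fewer ADR peaks, the direction of all coding genes (18.7% fewer and 10.8% more). The shares with fewer, 8 of 18 and 8 of 16, were larger than that of all coding genes. These differences from all coding genes were not tested.

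Peaks near marker genes give where FOXC2 was called and not which cells were sorted. All 8 podocyte markers (29 ADR and 25 PBS peaks) and all 5 mesangial markers (12 ADR and 13 PBS peaks) had a peak in either list, as did 3 of 8 endothelial (4 ADR and 6 PBS peaks), 3 of 6 proximal tubule (6 ADR and 2 PBS peaks), 2 of 3 parietal epithelial (2 ADR and 3 PBS peaks) and 1 of 4 immune markers (3 in each list). Of all 21911 coding genes 13479 had a peak in either list. Among the endothelial markers, *Pecam1*, *Cdh5*, *Emcn*, *Tek* and *Tie1* had no peak. The strongest folds at the others were 4.73 in ADR and 15.3 in PBS at *Kdr*, 10.3 in ADR and 11.7 in PBS at *Flt1*, and 4.46 in ADR and 6.62 in PBS at *Ehd3*. Among the immune markers, *Ptprc*, the pan-leukocyte marker, *Adgre1* and *Cd3e* had no peak. *Cd68* had strongest folds of 27.6 in ADR and 24.1 in PBS. Among the podocyte markers, the strongest fold at *Ptpro* was 31.8 in ADR and 6.46 in PBS, and at *Synpo* 4.20 in ADR and 16.1 in PBS. Their part in the differences at the 51 genes was not tested.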

How the data were processed

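FOXC2 ChIP-seq of sorted podocytes comprised 3 ADR and 3 PBS samples, deposited as 1 pooled peak list per group. The authors aligned the reads to GRCm38 and ran nf-core/chipseq to obtain narrow peaks, pooling the samples of a group. The pipeline's version, the caller inside it and its threshold are not given in the sources used here. The deposited fold enrichment is a ratio over the local control, and the deposited −log10 of the q-value served for thresholds. The deposited score and −log10 p columns were not used. Peaks within 10 kb of GENCODE M21 gene starts were counted, and all peaks lay within GRCm38 chromosome ends. Members, lists and rules were chosen with earlier results of these data known. Named were members the study names, those with the 5 strongest peaks and one-list sites, the 5 largest and smallest fold and number differences with ties, and members without peaks. Other members, and the long-gene sites, were named after their values were seen. Python 3.11.15, NumPy 2.4.6, pysam 0.24.0 and matplotlib 3.10.9 were used, and counting was tested on simulated data. Alternatives were windows of 5 and 50 kb, any transcript start, thresholds of 5 on −log10 q or fold, each list's best 20000 peaks by q, other overlap rules, centering, and motif settings. The depth per sample is unknown.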

Additional observations from a re-analysis of the deposited data

How the results depend on the processing

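Of 74 alternative values for 12 results, 57 stayed within 1.5 times the count or within the counting interval and 17 moved. A window of 50 kb gave 269 ADR and 287 PBS peaks, 24 members with fewer ADR peaks, and 63 ADR-only and 78 PBS-only sites. The 20000 peaks with the smallest q gave 35 ADR and 41 PBS peaks, 23 members with an ADR peak, 9 ADR-only sites and a median log2 difference of 0.28 over 26 shared sites. Overlap of at least 50% of both peaks gave 28 ADR-only and 32 PBS-only sites, and any transcript start gave 33 PBS-only sites. Forkhead shares were 4.82% in ADR and 6.90% in PBS within 50 bp of the summit, and 2.41% in ADR and 3.45% in PBS with the narrower strings GTAAACA and ATAAACA, both with ADR below PBS, the other way from the main values. *Plxnb1* had 7 ADR and 4 PBS peaks within 5 kb and 10 ADR and 9 PBS peaks within 50 kb. No paired analysis was possible because each group has 1 pooled list, and for the same reason leaving out replicates was not run. Read depth is unknown, and signal under the caller's threshold is not in the lists.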
